A study of Mus musculus with 6 samples.

Results

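The genes described here are the CSF1 receptor, its ligands and the marker genes of heart-resident macrophages, taken by their symbols from the deposited expression table. They are 10 of the 21989 gene symbols in that table: Csf1r, Csf1, Il34, Adgre1, Mrc1, Cd163, Lyve1, Folr2, Timd4 and Cd68. All 10 had a mean of at least 1 FPKM (read fragments scaled by gene length and by the mapped total of the library) and were tested, and no measured value was used to choose them, although results of this table were known when they were listed. RNA sequencing of polyadenylated RNA was performed on the left ventricle of 2 groups of male C57BL/6 mice with 3 libraries each. The ISO group received ISO, the usual abbreviation of the beta-adrenergic agonist isoproterenol, under the skin at 10 mg/kg/d for 3 weeks, and its animals are labelled as a heart failure model. The saline group received saline in the same way and volume for 3 weeks. No genotype beyond the strain and no age was given, and the labels do not say whether each library came from a single animal, so the p-values measure the spread between libraries.

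Most macrophages of the healthy heart are seeded before birth and renew themselves in place, while others are replaced by blood monocytes. CSF1 and IL-34 are secreted ligands that bind the same receptor tyrosine kinase, CSF1R, whose signal keeps macrophages alive and dividing. Long-lived resident cardiac macrophages carry TIMD4, LYVE1 and FOLR2, and monocyte-derived ones carry CCR2.

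Recovered library totals ranged from 5154283 to 7378782 reads across the ISO libraries, and from 2776152 to 9862363 reads across the saline ones. Saline 3 was the shallowest library, its Pearson r with the others across genes lay between 0.788 and 0.830, and 38.6% of its reads fell on genes longer than the median gene, against 48.1% to 51.2% in the other 5 libraries. The ventricular light chain Myl2 stood at 140 to 1985 FPKM in ISO and at 526 to 9101 FPKM in saline. It was below the atrial light chain Myl7 in 5 of the 6 libraries. In those 5 the ventricular label was not borne out by these genes. The exception was saline 3, with Myl2 at 9101 FPKM and Myl7 at 7469 FPKM. Fits without saline 3 thus leave out the only library with Myl2 above Myl7. The 10 cardiomyocyte markers, most of them not particular to the ventricle, summed to 12858 to 22034 FPKM in ISO and to 30328 to 47151 FPKM in saline. FPKM are shares of a library, and in bulk tissue more macrophages and more RNA per macrophage cannot be told apart. The part of the muscle share, the chamber markers and saline 3 in the values below was not tested.

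All 10 genes had a higher mean in ISO than in saline on the log2(FPKM + 1) scale, against 68.1% of all 12269 genes tested. For Cd68, Adgre1, Csf1r and Mrc1 every ISO library lay above every saline library, which makes 4 of 10 genes, against 12.8% of all genes tested, and 0 of 10 had the reverse order, against 3.72%. None of the 10 passed the test (limma with Benjamini-Hochberg adjustment over all genes, adjusted p = 0.699 for each), and 0% of all genes passed. At an unadjusted p under 0.05 there were 5 of the 10 genes, Csf1r, Adgre1, Mrc1, Folr2 and Cd68, against 6.31% of all genes in either direction. The median log2 fold change was 0.75 over the 10 genes and 0.20 over all genes tested. The median of all genes was 0.02 after median-of-ratios scaling, under which the 10 genes stayed above 0, between 0.34 and 1.54. Without saline 3 the 4 genes without overlap were still 4, against 18.3% of all genes, and all 10 log2 fold changes were above 0, between 0.13 and 1.82, against 59.1% of all genes (median 0.06). Without ISO 3 the genes without overlap were 7, against 20.1% of all genes, with Lyve1, Folr2 and Timd4 added.

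**Figure D1:**
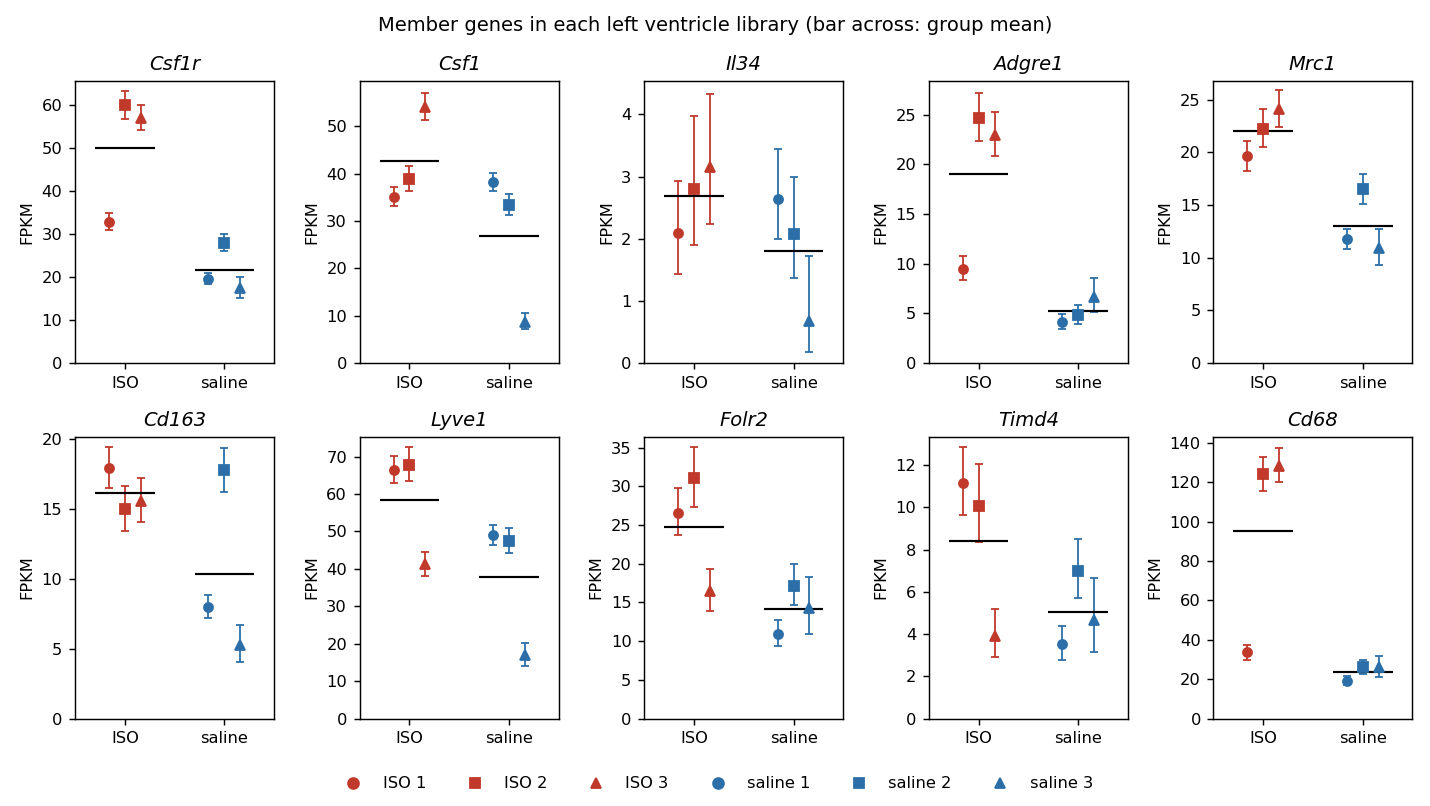
FPKM of the 10 genes in each library, with ISO in red and saline in blue, symbols for the replicate number, error bars for the 95% exact Poisson interval of the reads and a black line at the group mean (n = 3 each). Csf1r, Adgre1, Mrc1 and Cd68 have all ISO libraries above all saline libraries, while ISO 3 drops to the saline range for Lyve1, Folr2 and Timd4.

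Csf1r encodes the receptor for CSF1 and IL-34 (chromosome 18, 61105572 to 61131139, GRCm38). It stood at 32.9, 59.9 and 57.0 FPKM in ISO 1 to 3, against 19.6, 28.0 and 17.4 FPKM in saline 1 to 3. The groups did not overlap, and ISO 1 was nearer to saline 2 than to ISO 2 and ISO 3. Means were 49.9 ± 14.8 FPKM in ISO and 21.7 ± 5.60 FPKM in saline (SD, n = 3 each), a log2 fold change of 1.15 (SE 0.32). Between 1065 and 1404 reads were behind each ISO value, against 212 to 847 behind each saline value, so the 95% counting interval of ISO 1, 30.9 to 34.9 FPKM, did not reach that of saline 2, 26.1 to 30.0 FPKM. The annotation places Hmgxb3 on the opposite strand over part of Csf1r, and a Csf1r pseudogene lies on chromosome 19. No source used here says whether reads were counted by strand, so reads shared with these are uncertain.

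Csf1 encodes macrophage colony-stimulating factor (chromosome 3, 107741048 to 107760469). It stood at 35.2, 38.9 and 54.1 FPKM in ISO 1 to 3, against 38.2, 33.4 and 8.72 FPKM in saline 1 to 3. The groups overlapped, because saline 1 was above ISO 1, and saline 3 was far below all other libraries. The log2 fold change was 0.87 (SE 0.53) with all libraries and 0.23 without saline 3, and it was 0.11 when libraries were weighted by their quality, with saline 3 at 0.0772.

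Il34 encodes the second ligand of the receptor, best known in mice from skin and brain (chromosome 8, 110741829 to 110805949). It was the lowest of the 10 genes, at 2.08, 2.80 and 3.15 FPKM in ISO 1 to 3 and at 2.65, 2.07 and 0.671 FPKM in saline 1 to 3. These values rest on 31 to 38 reads in ISO and 4 to 56 reads in saline, and the counting intervals of ISO 1 (1.43 to 2.93 FPKM) and saline 1 (2.00 to 3.44 FPKM) overlap widely. The log2 fold change of 0.46 (SE 0.37) was 0.13 without saline 3. Per length, Csf1 stood above Il34 in every library, at 13.9 to 17.2 times the Il34 level in ISO and 12.98 to 16.2 times in saline. The balance of the ligands thus lay in nearly the same range in both groups. In saline 3, where each ligand was lowest, the ratio is uncertain. Il34 there rests on 4 reads, with a counting interval of 0.183 to 1.72 FPKM. The level of Csf1 was 1.07, 0.65 and 0.95 times that of its receptor in ISO 1 to 3, against 1.95, 1.19 and 0.50 times in saline 1 to 3. These ligand to receptor ratios overlapped (difference of log2 ratios -0.27, SE 0.61, exact permutation p = 0.8).

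Cd68 encodes a lysosomal membrane glycoprotein of all macrophages (chromosome 11, 69664213 to 69666170) and had the highest fold change of the 10 genes. It stood at 33.6, 124 and 129 FPKM in ISO 1 to 3, against 19.3, 26.1 and 26.0 FPKM in saline 1 to 3. Saline libraries lay close together, while ISO 1 was little above them and ISO 2 and ISO 3 were far above. Means were 95.4 ± 53.6 FPKM in ISO and 23.8 ± 3.90 FPKM in saline (SD, n = 3 each), a log2 fold change of 1.75 (SE 0.52). Saline 3 was not low for Cd68, at 1.15 times the mean of saline 1 and 2. Cd68 is also the shortest of the 10 genes (1247 bases), and saline 3 had the smallest share of reads on long genes.

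Adgre1 encodes F4/80, the adhesion receptor by which mouse macrophages are usually stained (chromosome 17, 57358581 to 57483529). It stood at 9.50, 24.7 and 23.0 FPKM in ISO 1 to 3, against 4.14, 4.83 and 6.70 FPKM in saline 1 to 3. As with Cd68, ISO 1 was the lowest ISO library and still above saline. Means were 19.1 ± 8.33 FPKM in ISO and 5.23 ± 1.32 FPKM in saline (SD, n = 3 each), a log2 fold change of 1.60 (SE 0.39). The ratio of Adgre1 to Cd68 was 0.28, 0.20 and 0.18 in ISO 1 to 3 and 0.21, 0.19 and 0.26 in saline 1 to 3, so the proportion of these pan-macrophage genes overlapped between the groups.

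Mrc1 encodes the mannose receptor CD206, which takes up glycoproteins (chromosome 2, 14229414 to 14332023). It stood at 19.6, 22.3 and 24.1 FPKM in ISO 1 to 3, against 11.8, 16.5 and 10.9 FPKM in saline 1 to 3. The groups did not overlap, with means of 22.0 ± 2.26 FPKM in ISO and 13.1 ± 3.01 FPKM in saline (SD, n = 3 each) and a log2 fold change of 0.73 (SE 0.24). Cd163 encodes the scavenger receptor for haptoglobin-bound hemoglobin (chromosome 6, 124304636 to 124330529). It stood at 17.9, 15.0 and 15.6 FPKM in ISO 1 to 3, against 7.97, 17.7 and 5.27 FPKM in saline 1 to 3. Saline 2 lay above ISO 2 and ISO 3, so the groups overlapped, and the log2 fold change of 0.75 (SE 0.41) was 1.19 without saline 2 and 0.40 without saline 3.

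Lyve1 encodes a hyaluronan receptor of resident perivascular macrophages and of lymphatic endothelium (chromosome 7, 110850607 to 110862953). It stood at 66.4, 67.9 and 41.2 FPKM in ISO 1 to 3, against 48.9, 47.6 and 17.0 FPKM in saline 1 to 3. ISO 3 was below saline 1 and 2, and the log2 fold change of 0.72 (SE 0.44) was 0.24 without saline 3, where the median of all genes was 0.06. The 8 lymphatic endothelial markers had summed levels between 28.6 and 31.8 FPKM in ISO, against 11.96 to 26.6 FPKM in saline. Of the 5 that were tested, 4 had a log2 fold change above 0, against 68.1% of all genes, and 0 passed with limma. Prox1, the transcription factor that sets lymphatic identity, lay between 4.40 and 5.18 FPKM in ISO, against 3.36 to 6.22 FPKM in saline, and the lymphatic chemokine Ccl21a was listed at 0 in all libraries. Mmrn1, a multimerin of lymphatic vessels, was at 3.48, 4.52 and 5.49 FPKM in ISO, against 1.40, 0.787 and 0.777 FPKM in saline. How much of Lyve1 came from lymphatic vessels was not tested.

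Folr2 encodes folate receptor beta (chromosome 7, 101839988 to 101857190), and Timd4 encodes a phosphatidylserine receptor for the uptake of dying cells (chromosome 11, 46810786 to 46844333). Folr2 stood at 26.6, 31.0 and 16.5 FPKM in ISO 1 to 3, against 10.9, 17.2 and 14.2 FPKM in saline 1 to 3. Timd4 stood at 11.1, 10.1 and 3.93 FPKM in ISO 1 to 3, against 3.51, 7.001 and 4.68 FPKM in saline 1 to 3. For each gene ISO 1 and ISO 2 lay above all saline libraries and ISO 3 lay within them. The log2 fold changes were 0.74 (SE 0.31) for Folr2 and 0.57 (SE 0.42) for Timd4, and without ISO 3 they were 0.998 and 0.98. For Timd4 the value was 0.33 without ISO 1 and 0.37 without saline 1. For Timd4 the 95% counting intervals of ISO 2 (8.36 to 12.1 FPKM) and ISO 3 (2.93 to 5.17 FPKM) did not overlap. Annotated antisense transcripts lie over parts of Folr2 and Il34, so their reads could be mixed where strand was not used.

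Folr2 and Timd4 were the closest pair of the 45 pairs among the 10 genes, with a root mean square difference of 0.22 between their log2(FPKM + 1) values, each centred on its own mean over the 6 libraries. The next pair was Adgre1 and Cd68 (0.26), and the pair farthest apart was Timd4 and Cd68 (1.12). Of the 10 genes, 6 have an entry in the RefSeq promoter table for GRCm38.p6 (Mrc1, Csf1, Cd163, Folr2, Timd4 and Cd68). The 250 bases before the start are printed for Folr2, Timd4 and Cd68, the members of the closest and the farthest pair that have an entry, with motif matches in capitals. They lie at chr7:101857191-101857440 (minus strand, the more upstream of 2 starts of Folr2), chr11:46810549-46810798 (plus strand) and chr11:69666171-69666420 (minus strand), and run 5′ to 3′ toward the gene.
Folr2: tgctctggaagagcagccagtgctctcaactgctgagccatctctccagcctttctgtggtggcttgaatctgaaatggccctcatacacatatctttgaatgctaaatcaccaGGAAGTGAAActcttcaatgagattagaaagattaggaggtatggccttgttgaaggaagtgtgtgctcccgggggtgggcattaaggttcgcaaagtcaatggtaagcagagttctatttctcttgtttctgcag
Timd4: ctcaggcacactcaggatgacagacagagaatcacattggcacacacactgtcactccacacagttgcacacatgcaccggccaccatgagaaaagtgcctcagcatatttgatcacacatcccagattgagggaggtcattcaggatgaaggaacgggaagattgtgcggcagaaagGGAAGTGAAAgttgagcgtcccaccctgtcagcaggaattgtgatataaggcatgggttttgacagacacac
Cd68: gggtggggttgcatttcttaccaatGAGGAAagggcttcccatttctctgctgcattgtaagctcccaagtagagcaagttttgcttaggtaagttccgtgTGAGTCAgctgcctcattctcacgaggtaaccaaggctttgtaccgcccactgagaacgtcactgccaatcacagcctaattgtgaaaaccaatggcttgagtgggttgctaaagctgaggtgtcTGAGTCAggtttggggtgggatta

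The motifs were chosen after these sequences were seen and were searched on both strands. GGAA, any 2 bases and then GAAA make up the composite element bound by PU.1 with an IRF factor, the lineage pair of macrophages. It is in these windows of Folr2 and Timd4, each time as GGAAGTGAAA on the gene's own strand. It lies 136 to 127 bases before the start of Folr2 and 72 to 63 bases before that of Timd4. Starts here are those of the promoter entries. The Timd4 window ends at 46810798, past the gene start of 46810786 given above. Of 32851 promoter windows of the same length, 2.30% hold the composite element. GAGGAA, a core that PU.1 binds, is in the window of Cd68 and in that of Mrc1, and in 23.3% of all windows. TGAGTCA, the AP-1 element, is in the Cd68 window 2 times, in the window of the more downstream start of Folr2, and in 4.46% of all windows. These matches describe the letters and not binding.

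**Figure D2:**
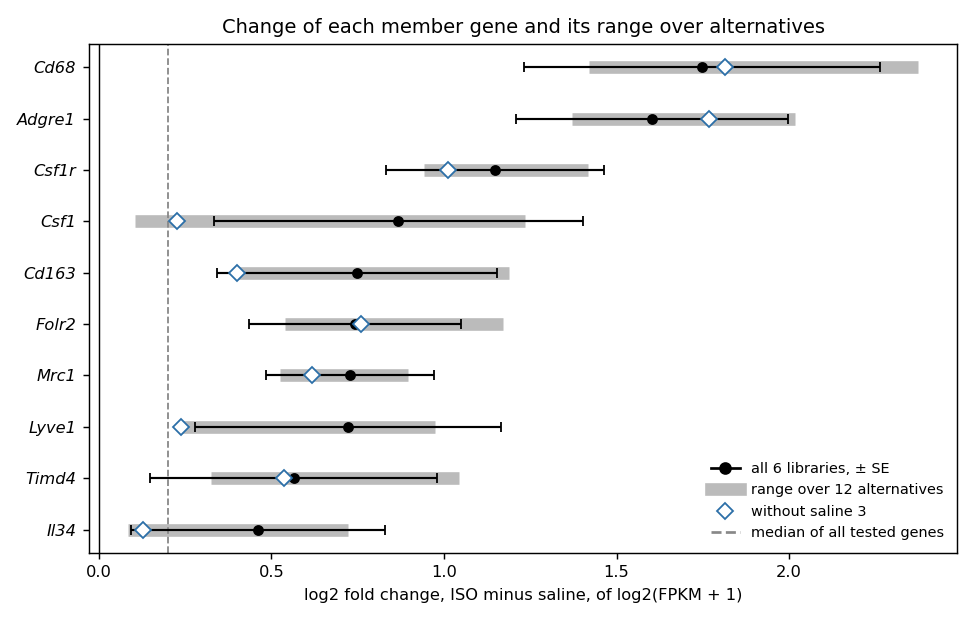
Log2 fold change (ISO minus saline, of log2(FPKM + 1)) of the 10 genes. Black points with bars are the fit with all 6 libraries ± SE, grey bars the range over 12 alternatives, diamonds the fit without saline 3, and the dashed line the median of all genes tested with all 6 libraries (0.20), which is 0.06 without saline 3. Without saline 3, Cd68 and Adgre1 stay at 1.82 and 1.77, and Csf1, Lyve1 and Il34 come to 0.23, 0.24 and 0.13.

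Levels within a library were then set against Csf1r, since such a ratio does not depend on the scaling between libraries. None of the 9 ratios passed the test (exact two-sided permutation test over 3 against 3 libraries, smallest possible p 0.1, adjusted p 0.6 to 0.8 over the 9 ratios), and this design cannot reach the threshold. Cd68 stood at 1.02, 2.07 and 2.26 times the Csf1r level in ISO 1 to 3, against 0.98, 0.93 and 1.49 times in saline 1 to 3 (log2 difference 0.60, SE 0.42, exact p = 0.2). Adgre1 stood at 0.29, 0.41 and 0.40 times Csf1r in ISO and at 0.21, 0.17 and 0.39 times in saline (log2 difference 0.59, SE 0.38, exact p = 0.2). The ratios of these pan-macrophage genes had higher group means in ISO, and the groups overlapped through saline 3. Cd68 and Adgre1 are shorter than Csf1r, at 1247 and 3280 against 4389 bases. Saline 3 had the smallest share of reads on long genes, and the part of gene length in these ratios was not tested.

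The other 7 ratios had lower log2 means in ISO, by -0.27 to -0.54, and overlapped as well. For 3 of them the sign turned when 1 library was left out, to 0.17 for Csf1 and 0.0365 for Il34 without saline 1, and to 0.0589 for Timd4 without ISO 3. Without ISO 3 the differences were -0.0148 for Folr2 and -0.0863 for Lyve1. Mrc1 was the steadiest in saline, at 0.60, 0.59 and 0.63 times Csf1r in saline 1 to 3, against 0.60, 0.37 and 0.42 times in ISO 1 to 3 (log2 difference -0.41, SE 0.21, exact p = 0.2). Timd4 stood at 0.34, 0.17 and 0.069 times Csf1r in ISO, against 0.18, 0.25 and 0.27 times in saline, so ISO 1 held the highest and ISO 3 the lowest of the 6 ratios. Folr2 stood at 0.81, 0.52 and 0.29 times Csf1r in ISO and at 0.56, 0.61 and 0.82 times in saline. Lyve1 stood at 2.02, 1.13 and 0.72 times Csf1r in ISO and at 2.5005, 1.70 and 0.98 times in saline. For Timd4, Folr2 and Lyve1 the spread within the ISO group was wider than the distance between the group means. Set against Cd68 instead, Timd4, Folr2 and Lyve1 had log2 differences of -1.14, -1.003 and -1.04, with exact p of 0.3 to 0.4.

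**Figure D3:**
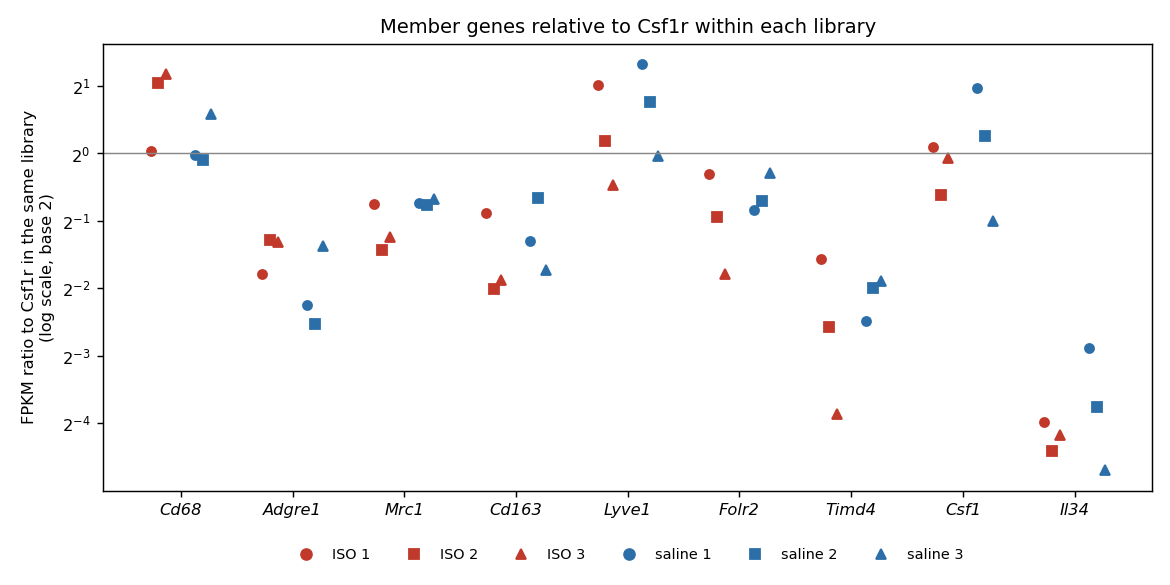
FPKM of 9 genes divided by the FPKM of Csf1r in the same library (log axis, base 2), with ISO in red left of saline in blue and symbols for the replicate number. For Timd4 the ISO libraries span 0.069 to 0.34 and enclose the saline libraries at 0.18 to 0.27.

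Across all tested genes the patterns closest to Csf1r included those of Colec12, Ncoa7, Snx10 and Fermt3, by the root mean square difference of centred log2(FPKM + 1) values over the 6 libraries (0.12 to 0.15). Colec12, a scavenger receptor of the collectin family, was at 10.7, 24.7 and 22.6 FPKM in ISO 1 to 3 and at 6.99, 9.83 and 7.21 FPKM in saline 1 to 3. Fermt3 is the kindlin of blood cells. Mrc1 was the closest of the other members, at rank 101 of all tested genes, and Timd4 the farthest, at rank 6462. These distances are a description over 6 libraries that share their totals.

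Other resident macrophage markers were listed with the results of these data known. In this list and those that follow, counts above 0 stand against 68.1% of all genes, or 65.5% without ISO 3. Of 20 markers 18 were tested, 15 had a log2 fold change above 0 (median 0.77), 0 passed with limma, and 7 had no overlap with ISO higher, against 12.8% of all genes. Summed, they reached between 1182 and 1383 FPKM in ISO, against 770 to 970 FPKM in saline. Without saline 3, 16 of 18 were above 0 (median 0.64), against 59.1% of all genes, and 10 had no overlap, against 18.3%. With all libraries 3 were below 0, Cbr2 (log2 fold change -0.03), F13a1 (-0.17) and Ccl24 (-0.94), each with overlap. These 3 are named here after their values were seen. The 4 with the smallest p were Selenop (Sepp1 in the table), Siglec1, Stab1 and Ms4a7. Sepp1, a secreted selenium carrier, was at 257 ± 27.4 FPKM in ISO and 148 ± 32.9 FPKM in saline (SD, n = 3 each). Stab1, a scavenger receptor, was at 85.2 ± 10.6 FPKM in ISO and 51.5 ± 15.8 FPKM in saline, and Siglec1, a sialic acid receptor, at 3.80 ± 0.804 FPKM in ISO and 1.34 ± 0.936 FPKM in saline. Ms4a7, a membrane protein of macrophages, was at 4.42, 20.1 and 25.02 FPKM in ISO 1 to 3, against 2.60, 2.31 and 6.30 FPKM in saline 1 to 3. ISO 1 was below saline 3 for Ms4a7, so its groups overlapped.

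Vsig4, a complement receptor of tissue macrophages named here after its values were seen, was at 35.5, 37.5 and 8.83 FPKM in ISO 1 to 3, against 14.3, 20.04 and 1.51 FPKM in saline 1 to 3. ISO 3 was below ISO 1 and ISO 2, as for Timd4 and Folr2, while saline 3 was far lower, unlike for those genes. For Sepp1, Stab1 and Ms4a7 ISO 3 was the highest library. In saline 3, Trem2, a lipid receptor of macrophages also named after its values were seen, rested on 3 reads (0.943 FPKM) while it stood at 24.2 to 43.2 FPKM in ISO and at 19.1 and 20.1 FPKM in saline 1 and 2. The complement gene C1qa was at 196 FPKM in the same saline 3, above saline 1 and 2 at 92.7 and 107 FPKM and within the ISO range of 175 to 215 FPKM. Macrophage genes therefore did not move together in that library.

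Markers of recruited monocytes and their progeny were read beside the members. Of 14 listed 10 were tested, 8 had a log2 fold change above 0 (median 0.94, and 0.38 without ISO 3), 0 passed with limma, and 3 had no overlap with ISO higher, against 12.8% of all genes. The same number, 3, had no overlap without ISO 3, against 20.1%. Ccr2, the chemokine receptor that brings monocytes out of the marrow, was at 6.25, 5.57 and 25.003 FPKM in ISO 1 to 3, against 5.09, 5.55 and 0.0908 FPKM in saline 1 to 3, where saline 3 rested on 1 read. Ly6c2, of classical monocytes, was at 4.21, 4.99 and 5.53 FPKM in ISO and at 4.56, 2.21 and 13.5 FPKM in saline, with overlap. ISO 3, the ISO library with the lowest Timd4, Folr2 and Lyve1, was thus the library with the highest Ccr2. Itgal, an integrin chain of leukocytes, was at 5.39 ± 0.726 FPKM in ISO and 1.39 ± 1.052 FPKM in saline, and Ms4a4c at 5.88 ± 3.06 FPKM in ISO and 1.88 ± 0.366 FPKM in saline (SD, n = 3 each). Gpnmb, a glycoprotein of lipid-laden and scar macrophages, was at 2.46, 66.6 and 72.9 FPKM in ISO 1 to 3, against 3.36, 2.21 and 7.40 FPKM in saline 1 to 3. ISO 1 lay within the saline range for Gpnmb, as it lay nearest to saline for Cd68 and Adgre1.

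**Figure D4:**
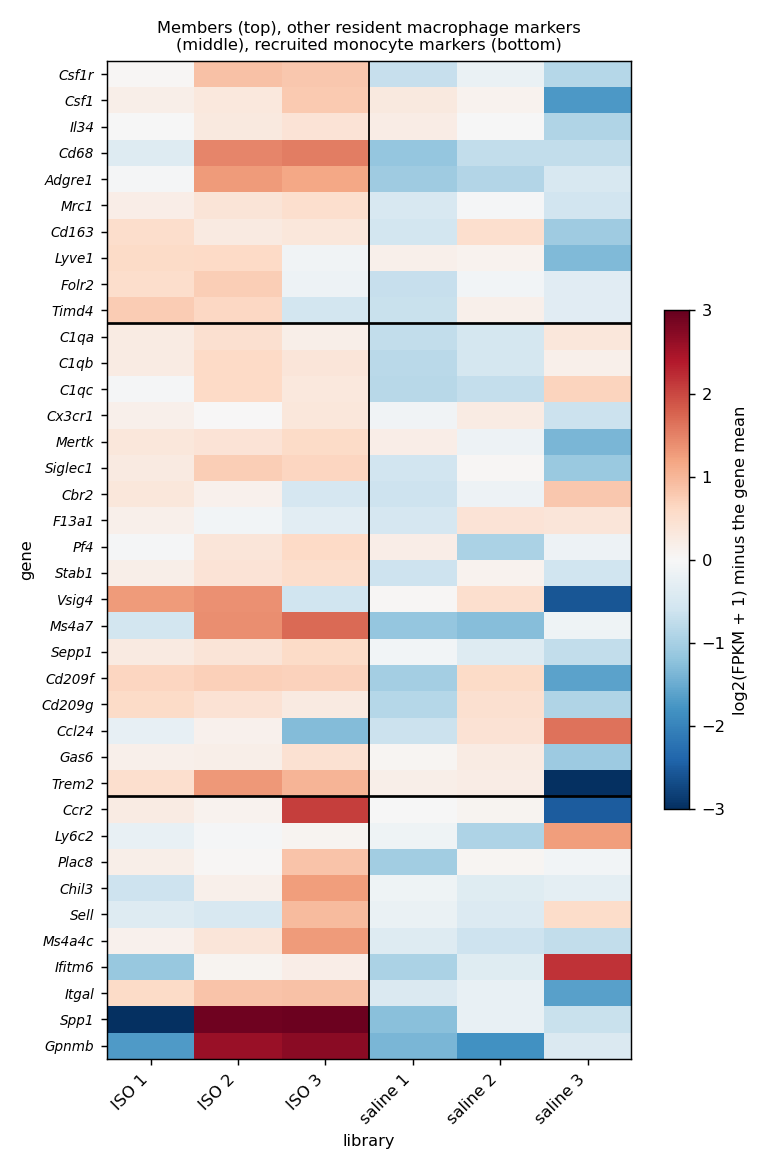
Log2(FPKM + 1) minus each gene's mean over the 6 libraries (columns, with ISO left of saline), for the 10 genes (top), the 18 other resident macrophage markers tested (middle) and the 10 recruited monocyte markers tested (bottom). The colour scale is capped at both ends. Spp1, a recruited monocyte marker, has the widest range, at 1.23, 225 and 226 FPKM in ISO 1 to 3. In saline 1 to 3 it is at 11.6, 24.5 and 17.8 FPKM. Within the row of Gpnmb the darkest red cells are ISO 2 and ISO 3 at 66.6 and 72.9 FPKM. Within the rows of Trem2, Vsig4 and Ccr2 the darkest blue cell is saline 3.

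Pan-macrophage and myeloid markers had 15 of 15 tested genes above 0 (median 1.046), 0 passed with limma, and 7 had no overlap with ISO higher, against 12.8% of all genes. Lyz2, lysozyme, was at 465, 1139 and 1059 FPKM in ISO 1 to 3, against 188, 301 and 322 FPKM in saline 1 to 3. Fcgr1, the high-affinity antibody receptor, was at 8.07 ± 0.626 FPKM in ISO and 3.24 ± 0.609 FPKM in saline (SD, n = 3 each). Each had groups that did not overlap, and for Lyz2 ISO 1 was again the lowest ISO library. The summed level of the 16 listed markers was 788 FPKM in ISO 1, 1947 FPKM in ISO 2 and 2021 FPKM in ISO 3, against 453 to 663 FPKM in saline.

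Of the transcription factors of the lineage, 13 of 15 were above 0 (median 0.41), against 68.1% of all genes, and 0 passed with limma. Only 1 of them (6.67%) had no overlap with ISO higher, against 12.8% of all genes. Spi1, which encodes PU.1, was at 12.8, 23.4 and 26.2 FPKM in ISO 1 to 3, against 9.66, 11.1 and 15.3 FPKM in saline 1 to 3, with ISO 1 inside the saline range. Zeb2, a repressor that keeps tissue macrophage identity, was at 8.42, 16.4 and 19.0 FPKM in ISO and at 7.28, 8.83 and 8.66 FPKM in saline. Irf8 was at 10.4 ± 1.48 FPKM in ISO and 7.40 ± 1.44 FPKM in saline, and Maf at 19.3 ± 3.44 FPKM in ISO and 13.7 ± 1.65 FPKM in saline (SD, n = 3 each). Among genes of CSF1R signalling and shedding 15 of 19 tested (78.9%) were above 0 (median 0.45), near the 68.1% of all genes, and 0 passed. Of these 19, 6 had no overlap with ISO higher, against 12.8% of all genes. After median-of-ratios scaling the median was 0.22 for the transcription factors and 0.24 for the signalling genes, against 0.02 for all genes. The kinase Src was at 7.74 ± 3.10 FPKM in ISO and 2.89 ± 1.053 FPKM in saline (SD, n = 3 each). Each ISO library lay above each saline library for Src.

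The other colony-stimulating factors had 50 reads or fewer in every library. Csf2, which encodes GM-CSF, had 0, 26 and 29 reads in ISO 1 to 3 and 3, 0 and 4 reads in saline 1 to 3. Csf3, which encodes G-CSF, had 0, 44 and 50 reads in ISO 1 to 3 and 3, 0 and 2 reads in saline 1 to 3. They were seen mainly in ISO 2 and ISO 3, the libraries with the highest Cd68 and Adgre1, and ISO 1 was listed at 0 for each. Il3 was listed at 0 in all libraries. In this list of ligands and receptors 10 of 11 tested genes were above 0 (median 0.82, and 0.50 without saline 3) and 0 passed with limma. Csf2rb, the shared receptor chain for GM-CSF, was at 3.27, 11.2 and 15.2 FPKM in ISO 1 to 3, against 2.57, 2.48 and 1.24 FPKM in saline 1 to 3, and Csf3r at 4.92 ± 2.16 FPKM in ISO and 1.76 ± 1.07 FPKM in saline (SD, n = 3 each).

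Receptors of dying cells and debris related to Timd4 and Mrc1 had 13 of 14 tested genes above 0 (median 0.72, and 0.40 without saline 3), and 0 passed with limma. Clec7a, the beta-glucan receptor dectin-1, was at 7.43, 18.7 and 24.5 FPKM in ISO 1 to 3, against 4.05, 4.38 and 2.37 FPKM in saline 1 to 3, and Lrp1, a large endocytic receptor, at 43.6 ± 3.96 FPKM in ISO and 20.8 ± 5.49 FPKM in saline (SD, n = 3 each). Groups did not overlap for either gene. Havcr1, a TIM family relative of Timd4, was listed at 0 in all libraries. Beside Folr2, the folate transporters Slc19a1 and Slc46a1 were at 1.59 ± 0.460 and 2.12 ± 0.529 FPKM in ISO, against 1.12 ± 0.420 and 1.13 ± 0.988 FPKM in saline (SD, n = 3 each).

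Markers of other cardiac cells were read in the same way. Fibroblast markers had 7 of 8 genes above 0 (median 0.89), with Lum at 83.5 ± 5.13 FPKM in ISO and 38.1 ± 4.22 FPKM in saline and Postn at 98.9 ± 30.0 FPKM in ISO and 32.0 ± 14.1 FPKM in saline (SD, n = 3 each). Endothelial markers had 8 of 8 above 0 (median 0.61), and 6 of 8 without saline 3 (median 0.08), with Vwf at 46.1 ± 8.83 FPKM in ISO and 27.1 ± 5.00 FPKM in saline and Tek at 33.1 ± 7.58 FPKM in ISO and 20.5 ± 13.1 FPKM in saline. Cardiomyocyte markers had 10 of 10 below 0 (median -0.79), and 8 of 10 without ISO 3 (median -0.31). Tnnt2 was at 6776 ± 783 FPKM in ISO and 11501 ± 933 FPKM in saline. Tnnc1 was at 1304 ± 263 FPKM in ISO and 3898 ± 1063 FPKM in saline. In these lists 0 genes passed with limma. The fibroblast and endothelial medians lay on either side of the 0.75 of the macrophage members, so a higher level in ISO was not shown to be particular to macrophage genes.

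Of the neutrophil markers 3 of 4 tested were above 0 (median 0.56, and 0.06 without ISO 3), their sums lay between 39.7 and 149 FPKM in ISO, against 39.0 to 104 FPKM in saline, with Retnlg at 3.57, 2.55 and 14.6 FPKM in ISO 1 to 3 and at 3.34, 3.39 and 0 FPKM in saline 1 to 3. Their defining marker Ly6g was listed at 0 in all libraries. S100a8 and S100a9, more abundant genes of the same list, had log2 fold changes of -0.41 and 0.0022. S100a8 was at 56.3 FPKM in ISO 3 and 33.1 FPKM in saline 3, and S100a9 at 65.9 and 68.7 FPKM. Of the dendritic cell markers 3 of 4 tested were above 0 (median 0.53, and 0.20 without saline 3), their sums lay between 12.4 and 20.1 FPKM in ISO, against 5.86 to 12.1 FPKM in saline, with Itgax at 1.78 ± 0.441 and Batf3 at 5.86 ± 1.15 FPKM in ISO, against 0.956 ± 0.657 and 2.47 ± 2.23 FPKM in saline. Of the lymphocyte markers 3 of 4 tested were above 0 (median 0.51), but 1 of 4 without ISO 3 (median -0.38), and their sums lay between 9.96 and 43.7 FPKM in ISO, against 7.25 to 16.9 FPKM in saline. In these lists, and among the alveolar macrophage markers, 0 genes passed with limma. The killer cell gene Nkg7 was at 4.001, 2.86 and 0.657 FPKM in ISO 1 to 3 and at 1.25, 1.76 and 0 FPKM in saline 1 to 3. ISO 3 was highest for Ccr2 and Retnlg alike, and whether blood or other leukocytes set these values was not tested. Alveolar macrophage markers had 2 of 6 tested genes above 0 (median -0.40), but 4 of 6 without saline 3 (median 0.43). Ear2 was at 1.79 ± 1.13 FPKM in ISO and 4.20 ± 1.31 FPKM in saline (SD, n = 3 each). Car4 was at 27.7 ± 4.25 FPKM in ISO and 40.2 ± 4.13 FPKM in saline. The 2 genes above 0 with all libraries were Marco (log2 fold change 1.47) and Chil3 (0.53). Marco was at 0.341, 7.23 and 12.2 FPKM in ISO 1 to 3, against 1.12, 1.76 and 0.181 FPKM in saline 1 to 3. Siglecf, of the same list, had 0, 0 and 1 reads in ISO 1 to 3 and 0, 8 and 0 reads in saline 1 to 3.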

How the data were processed

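The deposited table gives FPKM, made by the authors, for each gene symbol in 1 column per library, and columns were matched to samples by library name. Per the submitters' processing notes, which state no role or order, the tools included Cufflinks 2.2.1, HTSeq 0.7.2, HISAT2 2.1.0, fastp 0.20.0, CASAVA 1.8 and DESeq, and the build was GRCm38. Annotation and strand setting: not given in the sources used here. FPKM divide by gene length and library total, so a change of abundant genes shifts all others.

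Whole reads and library totals were worked out from the step size of low FPKM, and came out whole (within 0.0001) in 100% of 16816 genes detected in at least 2 libraries. They give the depth and the exact Poisson intervals (95%), which cover counting error only. The test was limma 3.58.1 (R 4.3.3), with a trended prior and no covariate, on log2(FPKM + 1). It covered 12269 genes whose mean reached 1 FPKM, and p-values were adjusted by Benjamini-Hochberg over all of these, at a threshold of 0.05. This scale understates changes of low genes. Ratios within a library were tested with exact permutation tests in Python 3.11.15. The fit and the read recovery were tested on simulated data. Every pair of libraries differed by at least 4.46 times the sampling noise (median chi-square over genes with at least 50 reads in the pair), so no pair was treated as repeat deposits of 1 library, which does not show that they came from different animals.

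The members, gene lists, motifs and alternatives were chosen with earlier results of these data known. The text names all members, the 4 list genes with the smallest p in 3 lists and the 2 with the smallest p in the others, the 5 genes closest to Csf1r, and Csf2, Csf3, Ccr2 and Ly6c2. Some genes that this rule names are not reported here. Genes beyond this rule were added with their values in view. They are Myl2, Myl7, Hmgxb3, Prox1, Ccl21a, Cbr2, F13a1, Ccl24, Vsig4, Trem2, C1qa, Spp1, Il3, Havcr1, Ly6g, S100a8, S100a9, Marco, Chil3 and Siglecf. Gene positions are those of RefSeq, overlaps those of GENCODE M21, and promoters those of RefSeq on GRCm38.p6. Alternatives were other pseudocounts, no filter, other scalings, quality weights, a replicate block, limma-voom on recovered reads, and each library left out.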

Additional observations from a re-analysis of the deposited data

How the results depend on the processing

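No gene passed with all libraries and equal weights (774 genes had an unadjusted p under 0.05), nor with a pseudocount of 0.1, no filter, median-of-ratios scaling, limma-voom on recovered reads or the replicate block, which called 0 genes and 0 members. Sample quality weights called 768 genes, 6 of them members (Csf1r, Adgre1, Mrc1, Folr2, Timd4 and Cd68, adjusted p 0.0192 to 0.0482 with limma). The share of all genes called higher there was 4.25%. The weights were 1.63, 5.50 and 0.449 for ISO 1 to 3 and 3.08, 1.04 and 0.0772 for saline 1 to 3. These calls therefore rest mostly on ISO 2 and saline 1. ISO 3, which lay within the saline range for Folr2 and Timd4, had the lowest weight of the ISO libraries. Leaving out 1 library called 0 to 16 genes (16 without ISO 1, 0 of them members). The cause was not tested. Same-numbered libraries did not deviate together (r 0.0129, -0.148 and -0.0255). With 3 libraries per group this cannot exclude a pairing, and the labels name none. All 10 log2 fold changes kept their direction in all 12 alternatives, with a range of 0.09 (Il34, quality weights) to 2.37 (Cd68, without ISO 1). Those of Csf1, Il34, Lyve1 and Cd163 fell by over 1.5 times without saline 3. Groups of 4 to 7 members did not overlap when 1 library was left out, with 7 without ISO 3, against 20.1% of all genes. No ratio to Csf1r passed in any setting, and 3 changed sign: with 1 library left out the difference of log2 ratios ran from -1.09 to 0.0589 for Timd4 (highest without ISO 3), from -0.81 to 0.17 for Csf1 and from -0.87 to 0.0365 for Il34 (both above 0 without saline 1). Of the 5 genes closest to Csf1r, 3 stayed among the closest 5 with a pseudocount of 0.1, 5 after median-of-ratios scaling and 0 to 3 with 1 library left out (added after seeing the data), so that list depends on single libraries. Among the 10 genes counts were lowest for Il34, and for each of the 10 they were lowest in saline 3. Csf2 and Csf3 also had low counts.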
